A study of Mus musculus with 2 samples.

Results

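The miR-10 and miR-196 microRNAs, which are encoded inside the Hox gene clusters, were followed in small RNA from exosomes of mouse pancreatic islets. The members were chosen by name as mmu-miR-10a-5p, mmu-miR-10a-3p, mmu-miR-10b-5p, mmu-miR-10b-3p, mmu-miR-196a-5p and mmu-miR-196b-5p, written below without the mouse prefix mmu. All 6 were in the deposited table, among 677 known mouse miRNAs and 2083 entries in all. Exosomes are small vesicles shed by cells, and islets hold the endocrine cells of the pancreas, insulin-secreting beta cells among them. The series holds 2 libraries, 1 from islets of C57BL/6 mice on a normal chow diet with 4% fat (NCD) and 1 from islets of C57BL/6 mice on a high-fat diet with 60% fat (HFD). Islets of both diets were kept for 1 week in medium free of serum exosomes, and vesicles were pelleted from the supernatants by ultracentrifugation. The sources used here do not give the age and sex of the mice, the length of the diet or the number of animals behind each library. The question asked was how the miRNA content of the vesicles differs between the diets. With 1 library per diet no spread between animals can be estimated, so no difference below has a replicate check and no p-value of this work is given.

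Hox genes are transcription factor genes that stand in 4 clusters and set the identity of body regions along the head to tail axis. A miRNA is cut from a hairpin precursor, pairs with messenger RNAs mainly through its seed, bases 2 to 8, and lowers their output. The hairpins of miR-10 and miR-196 lie within or beside Hox genes, and in the embryo they are expressed in patterns like those of their neighbours. miR-196 directs cleavage of the Hoxb8 messenger RNA in mouse embryos, and miR-10 represses Hoxb1 and Hoxb3 genes in zebrafish. Each hairpin has a 5p and a 3p arm, and for these families the 5p arm is the one usually kept as the guide.

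The mature sequences show how close the members are to each other, which bears on how reads can be assigned to them. They are shown 5′ to 3′ from RefSeq (GRCm38.p6) with the seed in capitals.
miR-10a-5p: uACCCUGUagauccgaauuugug
miR-10b-5p: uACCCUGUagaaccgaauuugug
miR-196a-5p: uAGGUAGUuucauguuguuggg
miR-196b-5p: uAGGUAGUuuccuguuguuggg
miR-10a-3p: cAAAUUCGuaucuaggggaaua
miR-10b-3p: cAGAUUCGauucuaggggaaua
miR-10a-5p and miR-10b-5p have the same seed, ACCCUGU, and differ by 1 base, U12A, counted from the 5′ end with the miR-10a base first. miR-196a-5p and miR-196b-5p have the seed AGGUAGU and also differ by 1 base at the same position, A12C, with the miR-196a base first. The 3p arms of miR-10a and miR-10b differ at 3 positions, A3G, U9A and A10U, the first of which lies in the seed. Among 1679 mature mouse sequences in the reference table, only the 2 members of each 5p pair carried that pair's seed at bases 2 to 8. The sources used here do not say how mismatched reads were assigned, so the sum of each pair is given beside its members.

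The whole hairpins of miR-10a and miR-10b show where the arms sit, with the mature 5p and 3p sequences in capitals.
Mir10a: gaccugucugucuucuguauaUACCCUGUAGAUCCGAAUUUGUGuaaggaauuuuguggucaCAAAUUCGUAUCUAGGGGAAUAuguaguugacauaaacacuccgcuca
Mir10b: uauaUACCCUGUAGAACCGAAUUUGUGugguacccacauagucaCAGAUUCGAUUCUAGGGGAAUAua
The hairpin of miR-10a is on the plus strand of chromosome 11 (96317165 to 96317274, GRCm38), in no annotated gene on that strand, and the annotated start of Hoxb4 lies 993 bases downstream. The hairpin of miR-10b is on the plus strand of chromosome 2 (74726070 to 74726137), in an intron of all 3 annotated Hoxd3 and Hoxd4 transcripts that span it. miR-196a-5p can come from either of 2 hairpins, and the reads do not tell them apart. Mir196a-1 is on the plus strand of chromosome 11 (96265164 to 96265265), 6192 bases upstream of Hoxb9 and outside any gene. Mir196a-2 is on the plus strand of chromosome 15 (102973350 to 102973434), in an intron of the long Hoxc5 gene model and between Hoxc10 and Hoxc9. The hairpin of miR-196b is on the minus strand of chromosome 6 (52230081 to 52230165), within Hoxa9, where it overlaps an exon of 2 of the 3 transcripts that span it. The annotation therefore places each of the 5 hairpins in a Hox cluster, as the map of the clusters shows.

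**Figure D1:**
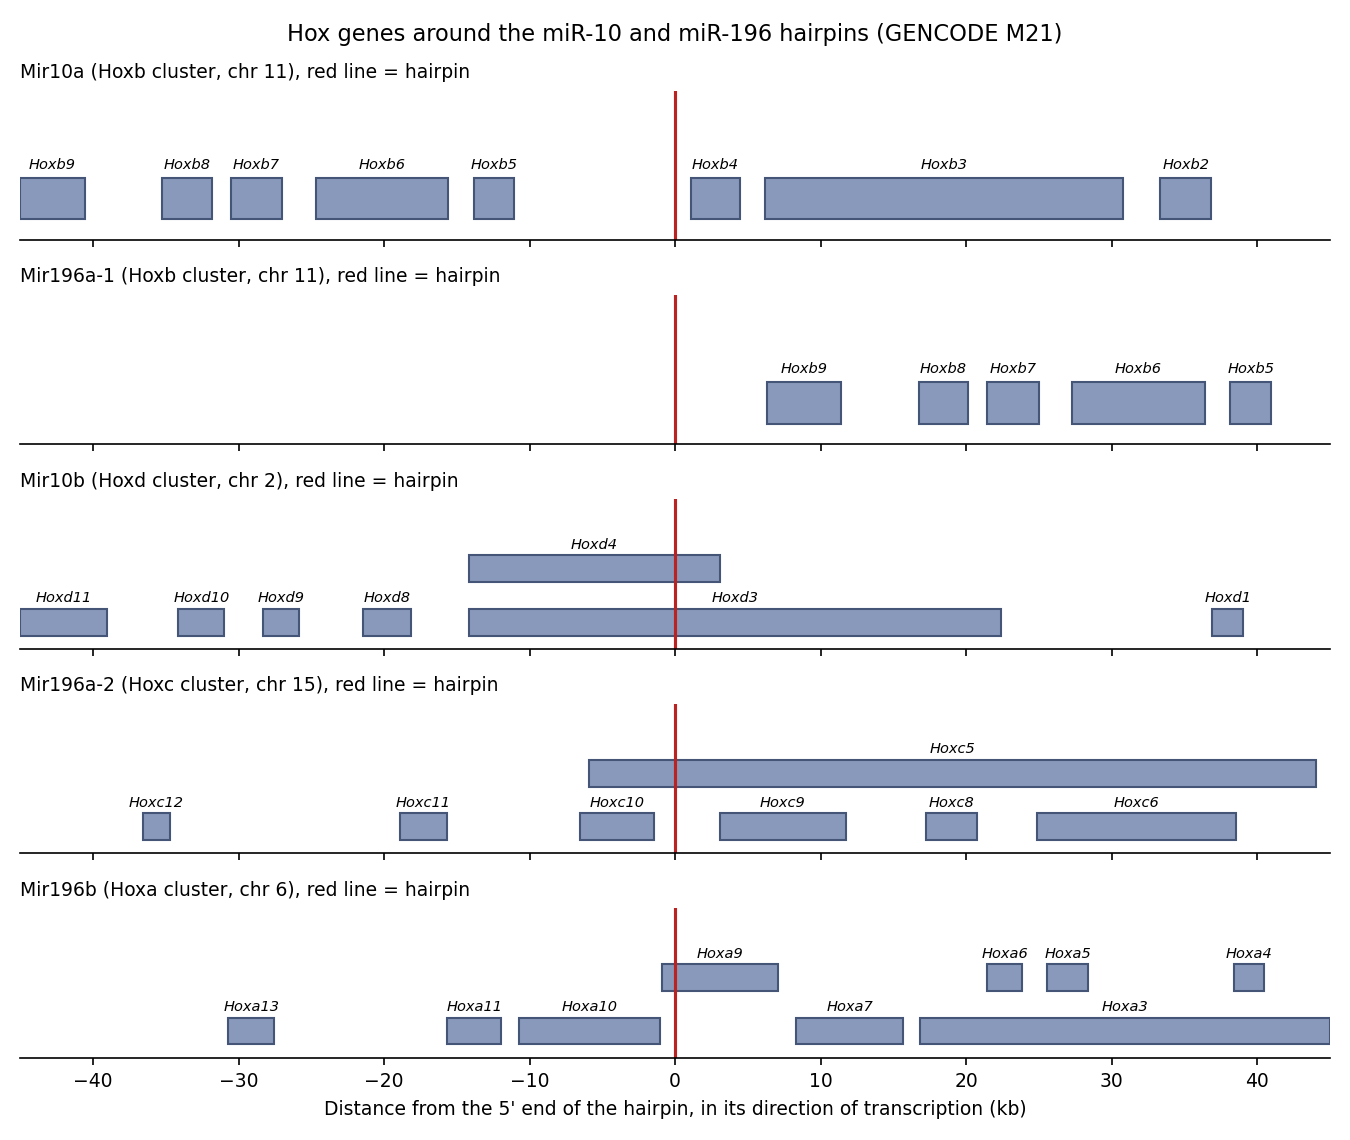
Hox genes (bars, GENCODE M21) around each of the 5 hairpins that give the members, with the distance from the 5′ end of the hairpin in kb along its direction of transcription. Mir10a stands 993 bases before Hoxb4, Mir196a-1 lies 6192 bases before Hoxb9, and the other 3 hairpins lie within annotated Hox genes.

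Depth was 2417589 miRNA counts in NCD and 2020831 in HFD. Levels are counts per 1000000 counts of the library (CPM), and the limit for a miRNA listed at 0, taken as 3 counts, was 1.24 CPM in NCD and 1.48 CPM in HFD. Among markers, miR-375-3p and 7 other islet endocrine miRNAs summed to 88110 CPM in NCD and 91412 in HFD. The hepatic list, led by miR-122-5p, was higher than that in both libraries, at 322086 and 245753 CPM. Intervals in the text are 95% exact counting intervals, Poisson for a level and Clopper-Pearson for a ratio or share. They cover counting error only, and PCR copies of one molecule are not independent molecules.

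The miR-10 guides were abundant in both libraries and differed little between the diets. The rare miR-196 guides, at 8 to 41 counts, had ratios of HFD over NCD above 2. The counting interval of miR-196a-5p reached down to 1.41. An miRNA was called higher or lower if its log2 ratio of HFD over NCD, with 1 CPM added to each level, was at least 1 either way and the larger library held at least 10 counts. All 6 members reached 10 counts. By this rule of size 2 were higher, 0 were lower and 4 were within 2-fold. The background was 25.3% called higher and 9.56% called lower over the 387 known miRNAs that reached 10 counts. Among the 115 known miRNAs with 20 to 99 counts summed over both libraries, as rare as the miR-196 guides, 33.0% were called higher. Median-of-ratios size factors were 1 for both libraries, so that setting compared raw counts with no correction for depth. With these factors the split of the 387 known miRNAs was 78 higher and 52 lower in place of 98 and 37. miR-196a-5p and miR-196b-5p were again the 2 members called higher. The median log2 ratio was -0.01 over the 6 members and 0.33 over the 387 known miRNAs.

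**Figure D2:**
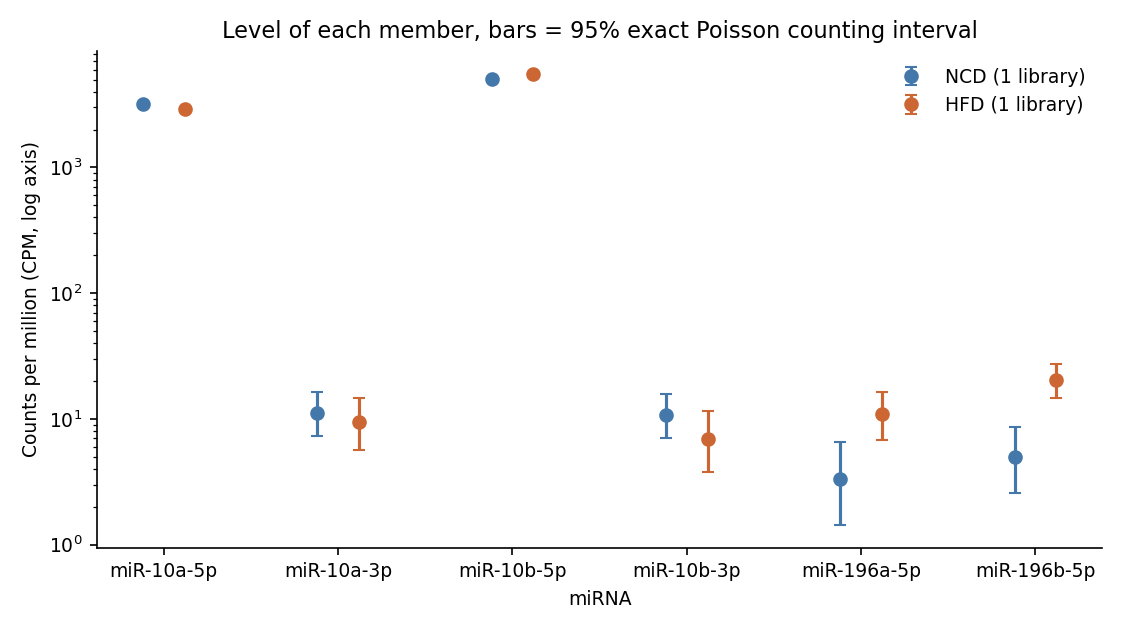
Level of each member in the NCD and HFD libraries in CPM on a log axis, with bars for the 95% exact Poisson counting interval. miR-10a-5p and miR-10b-5p stand between 2916 and 5493 CPM, the other 4 members between 3.31 and 20.3 CPM, and of these only miR-196a-5p and miR-196b-5p have intervals of the 2 diets that do not overlap.

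miR-10b-5p, the guide from the Hoxd cluster, was the most abundant member. Its counts were 12301 in NCD and 11101 in HFD, which give 5088 CPM (4999 to 5179) and 5493 CPM (5392 to 5596). It ranked 23 among known miRNAs in each library and took 0.509% and 0.549% of the counts. Its ratio of HFD over NCD was 1.08 (1.05 to 1.11), but the log2 ratio of 0.11 became -0.15 when scaled by median-of-ratios factors, -0.04 when scaled by TMM and -0.08 with the trend on GC content removed, so its direction depends on the processing. Its larger library placed it among 91 known miRNAs with 1000 counts or more, of which 48 had a higher log2 ratio and 42 a lower one.

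miR-10a-5p, the guide from the Hoxb cluster, had 7757 counts in NCD and 5892 in HFD. Its level was 3209 CPM (3138 to 3281) in NCD and 2916 CPM (2842 to 2991) in HFD, a ratio of 0.909 (0.878 to 0.940). Its rank was 31 in NCD and 38 in HFD. The log2 ratio of -0.14 lay below 0 under every scaling tried, from -0.40 with median-of-ratios size factors upwards. Of the same 91 abundant miRNAs, 56 had a higher log2 ratio and 34 a lower one. In that group 13.2% were called higher and 3.30% lower, and neither miR-10 guide was among them.

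The sum of the miR-10 guides, which does not depend on how reads were split between them, was 8297 CPM in NCD and 8409 CPM in HFD. The ratio of the sums was 1.01 (0.993 to 1.03), an interval that includes 1. The log2 ratio of the sum was 0.02, and it turned to -0.24 when scaled by median-of-ratios factors and to -0.13 when scaled by TMM. The pair made up nearly all of the 6 members' counts, 20058 of 20131 in NCD and 16993 of 17089 in HFD.

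The balance between the miR-10 guides needs no scaling between libraries, since both counts come from the same library. miR-10b-5p made up 61.3% of the pair in NCD (60.6 to 62.0) and 65.3% in HFD (64.6 to 66.0). For each count of miR-10a-5p there were 1.59 of miR-10b-5p in NCD and 1.88 in HFD. The ratio of these, 1.19 (1.14 to 1.24), was larger than counting error alone allows, and its size against the spread between cultures is unknown. The base that tells the guides apart is the one at position 12 shown above.

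**Figure D3:**
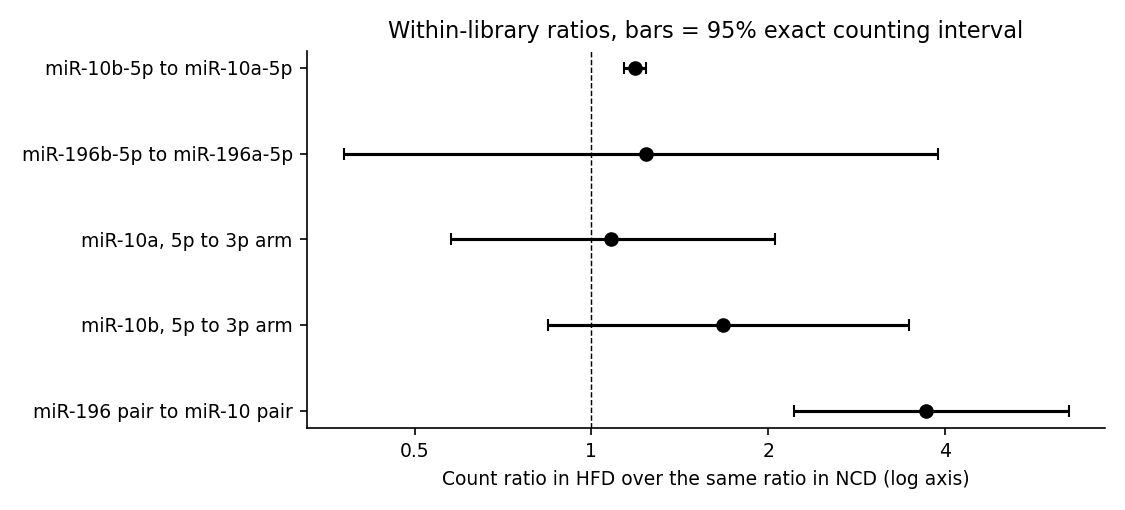
Count ratios taken within a library, given as the HFD value over the NCD value on a log axis, with bars for the 95% exact counting interval. The balance of miR-10b-5p to miR-10a-5p (1.19) and of the miR-196 pair to the miR-10 pair (3.72) have intervals above 1, while the other 3 intervals include 1.

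The 3p arms of miR-10 were rare in both libraries. miR-10a-3p was counted 27 times in NCD and 19 times in HFD, which is 11.2 CPM (7.36 to 16.2) and 9.40 CPM (5.66 to 14.7). Its ratio was 0.842 (0.442 to 1.57). miR-10b-3p had 26 and 14 counts, or 10.8 CPM (7.03 to 15.8) and 6.93 CPM (3.79 to 11.6), with a ratio of 0.644 (0.311 to 1.28). Together the 3p arms had 53 and 33 counts, a ratio of 0.745 (0.467 to 1.17). All 3 intervals include 1, so no difference in the 3p arms was detectable at this depth.

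The 5p arm dominated both hairpins. It made up 99.7% of the miR-10a counts in NCD (99.5 to 99.8) and 99.7% in HFD (99.5 to 99.8). For miR-10b it made up 99.8% in NCD (99.7 to 99.9) and 99.9% in HFD (99.8 to 99.9). In counts, miR-10b-5p outnumbered its 3p partner 473 to 1 in NCD and 793 to 1 in HFD, and miR-10a-5p outnumbered its partner 287 and 310 to 1. The arm ratio in HFD over that in NCD was 1.08 (0.578 to 2.06) for miR-10a and 1.68 (0.843 to 3.47) for miR-10b, both with intervals that include 1.

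The miR-196 guides were rare, and each was higher in the HFD library. miR-196b-5p, from the Hoxa cluster, had 12 counts in NCD and 41 in HFD. Its level was 4.96 CPM (2.56 to 8.67) in NCD and 20.3 CPM (14.6 to 27.5) in HFD, and these intervals do not overlap. It was 4.09-fold higher in HFD (2.11 to 8.54), so the whole interval lay beyond 2-fold. Its rank among known miRNAs was 322 in NCD and 244 in HFD.

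miR-196a-5p, from the Hoxb and Hoxc clusters, had 8 counts in NCD and 22 in HFD. Its level was 3.31 CPM (1.43 to 6.52) in NCD and 10.9 CPM (6.82 to 16.5) in HFD, again without overlap. It was 3.29-fold higher (1.41 to 8.55), with an interval that reaches under 2-fold. It met the count minimum through the HFD library alone. With 10 CPM added in place of 1, its log2 ratio was 0.65 in place of 1.46, so it was no longer called, while that of miR-196b-5p was 1.02 in place of 1.84.

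Summed, the miR-196 guides reached 20 counts in NCD and 63 in HFD, which is 8.27 CPM (5.05 to 12.8) and 31.2 CPM (24.0 to 39.9). The sum was 3.77-fold higher in HFD (2.25 to 6.58). miR-196b-5p made up 60.0% of the pair in NCD (36.1 to 80.9) and 65.1% in HFD (52.0 to 76.7), and the ratio of the balances was 1.24 (0.379 to 3.90). No shift between the miR-196 guides was detectable at this depth. Set against the miR-10 guides of the same library, the miR-196 pair was 3.72-fold higher in HFD (2.22 to 6.50), a value that needs no scaling. It rests on the same 20 and 63 counts as the 3.77-fold, with the miR-10 pair at a ratio of 1.01, so it is not separate evidence. The log2 ratio of the miR-10 pair, 0.02, was also below the median of 0.33 over the 387 known miRNAs that reached 10 counts. Mir10a and Mir196a-1 lie in the same Hoxb cluster, and their 5p products had ratios of 0.909 and 3.29, though miR-196a-5p also has its Hoxc source.

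Ratios of this size were common among miRNAs as rare as these. The 4 rare members each had between 20 and 99 counts summed over both libraries, as did 115 known miRNAs in all. Of these 115, 33.0% were called higher and 9.57% lower, and for 13.9% the whole interval lay above 2-fold, as it did for miR-196b-5p. Over the 387 known miRNAs that reached 10 counts, the interval lay wholly above 2-fold for 15.0%. The log2 ratio of miR-196b-5p was exceeded by 14 of the 115 and by 40 of the 387. That of miR-196a-5p was exceeded by 24 of the 115 and by 60 of the 387.

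**Figure D4:**
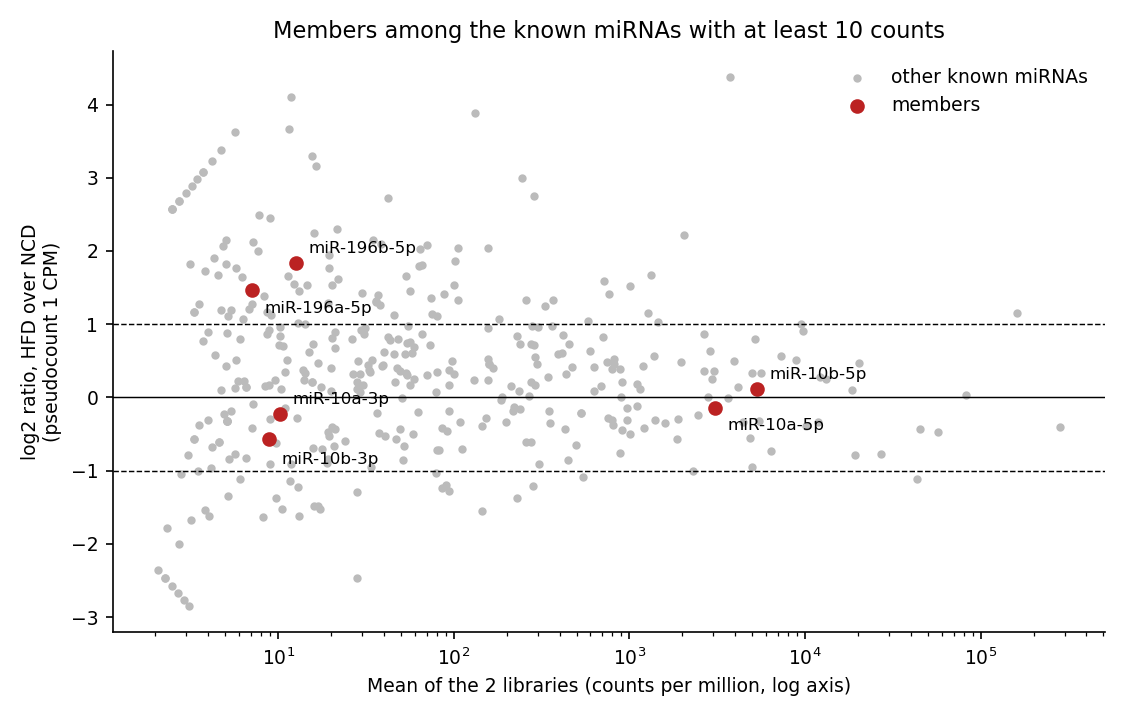
log2 ratio of HFD over NCD (pseudocount 1 CPM) against the mean level of the 2 libraries (CPM, log axis) for the 387 known miRNAs that reached 10 counts, with the 6 members in red and dashed lines at 2-fold. miR-196a-5p (1.46) and miR-196b-5p (1.84) lie above the upper line among many other rare miRNAs, and the miR-10 guides lie near 0 among abundant ones.

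In order of level, miR-10b-5p stood above miR-10a-5p in both libraries with intervals that do not overlap. The order of the rare members differed between the libraries. In NCD it ran from miR-10a-3p through miR-10b-3p and miR-196b-5p to miR-196a-5p, and the interval of each overlapped that of the next. In HFD it ran from miR-196b-5p through miR-196a-5p and miR-10a-3p to miR-10b-3p, again with overlap between neighbours. These levels are not scaled by length, since the members are 22 or 23 bases long, and ligation of small RNAs depends on their ends, so a level compares miRNAs only roughly.

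Other products of the same hairpins and clusters were few. The 3p arms of the 3 miR-196 hairpins were not in the table under any of the names searched. miR-615-3p, whose hairpin lies in an intron of Hoxc5 on chromosome 15 (103014910 to 103015001), had 51 counts in NCD and 84 in HFD. Its level was 21.1 CPM and 41.6 CPM, a ratio of 1.97 (1.38 to 2.85), just within 2-fold by the rule, with a log2 ratio of 0.95. miR-615-5p was not in the table.

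The nearest known miRNAs by level in the 2 libraries were found for the members with at least 100 counts. The measure was the Euclidean distance between log2(CPM + 1) values over 2 libraries, so it describes level more than pattern. miR-10a-5p was nearest to miR-27b-3p, at 2803 and 2824 CPM with a distance of 0.20, and to miR-143-3p, a miRNA of smooth muscle and fibroblasts, at 2716 and 3224 CPM with a distance of 0.28. miR-10b-5p was nearest to let-7g-5p, at 4971 and 6241 CPM with a distance of 0.19, and to miR-541-5p, at 4404 and 5529 CPM with a distance of 0.21.

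Markers of several cell types also differed between the libraries. In vesicles pooled from whole islet cultures, more vesicles of a cell type and more copies per vesicle cannot be told apart. The summed level of 6 stromal miRNAs was 3277 CPM in NCD and 3657 in HFD, with 0 of 5 measured members past 2-fold. Most of it was miR-143-3p, with a ratio of 1.19. The measured members went both ways, with 1.63 for miR-199a-5p, 1.37 for miR-199a-3p, 0.897 for miR-145a-5p and 0.531 for miR-214-3p. All 4 striated muscle miRNAs were higher, and their sum went from 440 to 7674 CPM, with miR-133b-3p at 0 counts in NCD. All 4 acinar miRNAs were higher, and their sum went from 99807 to 221096 CPM. Nearly all of that sum was miR-148a-3p, at 99722.5 CPM in NCD and 220847 in HFD. miR-216a-5p went from 8.27 to 17.8 CPM, miR-216b-5p from 47.6 to 129 and miR-217-5p from 28.5 to 102. The endothelial sum went from 6396 to 12750 CPM, and 0 of 2 measured members passed 2-fold. miR-126a-3p, nearly all of that sum, fell just short with a log2 ratio of 0.997, and that of miR-126a-5p was 0.714. Of 4 measured immune miRNAs 2 were higher, with sums of 1573 and 2305 CPM. The hepatic list had 2 of 4 higher although its sum was lower in HFD. The erythroid list had 0 of 4 past 2-fold, with sums of 124434 and 98641 CPM. Ratios of its members lay on both sides of 1, at 1.87 (miR-451a), 1.51 (miR-144-3p), 0.741 (miR-486a-5p) and 0.722 (miR-486b-5p). The islet list had 2 of 8 higher. The part of any of these in the miR-196 ratios was not tested.

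In the authors' deposited table, miR-196b-5p alone of the 6 members had an FDR under 0.05, at 0.0022 with a log2 fold change of 1.87. For miR-196a-5p the authors' deposited table gave a log2 fold change of 1.55 and an FDR of 0.0797. The authors' deposited table gave log2 fold changes of -0.29 for miR-10a-5p and -0.04 for miR-10b-5p, with FDR values of 0.409 and 1. The authors' deposited table had an FDR under 0.05 for 18.0% of all entries and for 38.8% of the 387 known miRNAs that reached 10 counts. Of the same 387, 24.0% had both an FDR under 0.05 and a log2 fold change towards HFD. All 2083 p-values and log2 fold changes of the authors' deposited table were matched within 1e-06 by edgeR's exact test with TMM scaling when the biological coefficient of variation was set to 0.1. Those FDR values therefore rest on a preset spread, with no replicates behind it.

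**Figure D5:**
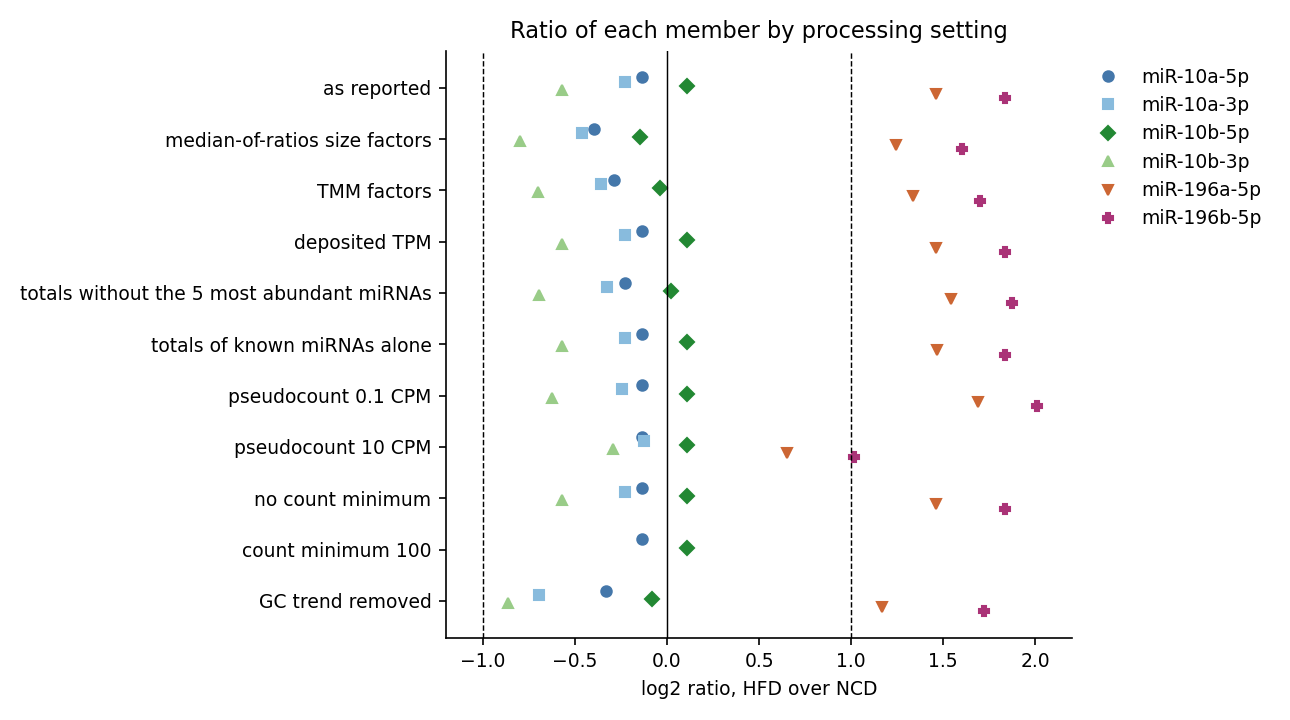
log2 ratio of HFD over NCD for each member under each processing setting, with dashed lines at 2-fold and a solid line at 0. miR-196b-5p stays at 1.02 or above where it has a value, miR-196a-5p comes within 2-fold with 10 CPM added, miR-10b-5p lies on either side of 0, and the other 3 members stay below 0.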

How the data were processed

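Small RNA libraries were made with an NEBNext kit per the labels' protocols, 1 per diet. The deposited table holds the authors' raw count per mature miRNA, their TPM value per library, and their p-value, FDR and log2 fold change. Each of the authors' TPM values equals the deposited count divided by the library's total and multiplied by 1000000, without regard to length. Per the submitters' processing notes the build was GRCm38, and the sources used here give neither the aligner nor the counting rules.

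From the counts, CPM, log2 ratios (pseudocount 1 CPM) and exact intervals were computed with Python 3.11.15 and scipy 1.17.1. TMM factors came from edgeR 4.0.16 and size factors from DESeq2 1.42.0. The main edgeR quasi-likelihood test was not run, since 1 library per diet leaves no residual spread. Within-library ratios are conditional odds ratios. The ratio and its interval were run on simulated Poisson counts, the model that the interval assumes. Those counts hold no spread between cultures and no PCR copies, so the run checks the calculation only. Mature and hairpin sequences came from RefSeq (GRCm38.p6) and positions from GENCODE M21. All 6 members were matched by name. The miRNAs named are the members, the other miRNAs of the Hox clusters, the miR-99, miR-100 and miR-125 relatives, seed sharers, the 2 nearest miRNAs of each abundant member and, chosen after their values were seen, single miRNAs of the cell type marker lists. The members, lists and the group with 20 to 99 summed counts were chosen with earlier results of these data known.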

Additional observations from a re-analysis of the deposited data

How the results depend on the processing

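miR-196a-5p and miR-196b-5p were both past 2-fold higher under 8 of the 10 alternatives tried, and 0 members were past 2-fold lower under any. The deposited TPM and the lack of a count minimum could not change this, since they left the log2 ratios at 1.46 and 1.84. Totals of known miRNAs alone hardly moved them either, to 1.47 and 1.84. With a pseudocount of 10 CPM 1 member was higher, and with a count minimum of 100, which leaves only the miR-10 guides, 0 were. Many other known miRNAs stayed higher too. Of the 387 that reached 10 counts, 78 were higher with median-of-ratios factors, 86 with TMM and 102 with 0.1 CPM added. It was 93 with totals that leave out the most abundant miRNAs, and 85 of those with a sequence after removal of the GC trend. The lasting calls therefore do not set the miR-196 guides apart. The log2 ratio of the 6 summed members, 0.02 as reported, turned below 0 with DESeq2's median-of-ratios factors (-0.24), TMM (-0.13) and totals that leave out the 5 most abundant miRNAs of either library (-0.067). DESeq2's factors were 1 for both libraries, so raw counts were compared. The same scalings moved the median log2 ratio of the 207 known miRNAs that reached 100 counts by -0.26, -0.15 and -0.089. The number of known miRNAs past 2-fold, 98 higher and 37 lower of 387 as reported, was 53 and 10 of 387 with 10 CPM added. It was 170 and 81 of up to 677 with no count minimum, and 40 and 11 of 207 with a minimum of 100. A change of minimum changes the set counted, so those counts do not compare directly with 98 and 37. Removal of the linear trend with GC content brought miR-10b-5p to -0.08, miR-10a-5p to -0.33, miR-196a-5p to 1.17 and miR-196b-5p to 1.72. Sums were not corrected for GC content and had no value with a count minimum of 100. With 0.5 added to each count, all 5 within-library ratios stayed inside their intervals, which so small a change could hardly have altered. No paired analysis was possible because each diet has 1 library. The 8 to 41 counts per library behind the rare members limit what can be seen of them.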

Other observations

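The seed of miR-196 also occurs in let-7, shifted by a base. The stretch shared by the pair is shown in capitals, at bases 2 to 8 of miR-196b-5p and bases 3 to 9 of let-7a-5p.
miR-196b-5p: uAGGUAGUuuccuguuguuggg
let-7a-5p: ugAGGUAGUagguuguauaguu
Of the miRNAs measured, 8 of the let-7 family, miR-98-5p included, carried AGGUAGU at bases 3 to 9. Their summed level was 104197 CPM in NCD and 79690 CPM in HFD, a ratio of 0.765 (0.760 to 0.770), against 8.27 and 31.2 CPM for the miR-196 pair. Of the 8, 3 had a log2 ratio above 0 and 5 below 0. These are descriptions of sequence and level, and nothing is known here of targets.

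miR-100-5p, which belongs to the same sequence family as miR-10, shares 11 bases in a row with miR-10a-5p, shown in capitals, and only 5 with miR-10b-5p, whose base at position 12 breaks the stretch.
miR-10a-5p: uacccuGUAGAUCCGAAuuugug
miR-100-5p: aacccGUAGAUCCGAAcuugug
The relatives were all within 2-fold, with ratios of 1.39 for miR-99a-5p, 0.992 for miR-99b-5p and 1.29 for miR-100-5p, the last at 2655 CPM in NCD and 3417 in HFD. miR-125a-5p and miR-125b-5p had ratios of 0.818 and 0.820.

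Over the 180 known miRNAs that reached 100 counts and have a mature sequence in the reference, 87.0% of 207, the log2 ratio fell by 0.39 for each 10 points of GC content in a linear fit. The members have a GC content of 36.4% for miR-10a-3p to 45.5% for miR-196b-5p, all below the median of 47.6% in that group.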
